A study of Mus musculus with 9 samples.

Results

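Simple epithelial keratins and claudins are described here through 8 genes: the keratins Krt7, Krt8, Krt18 and Krt19, the adhesion molecule Epcam and the claudins Cldn4, Cldn6 and Cldn7. They were chosen by symbol, as the 11 probe sets annotated to exactly 1 of these genes, out of 34945 probe sets with 1 symbol (18193 genes). The choice was made with earlier results of these data known. The 9 Affymetrix mouse arrays, with 3 for each stage, hold RNA of laser-captured cells that the labels call neural crest cells. The stages were E8.5 embryos during neural tube closure, dorsal root ganglia of E13.5 embryos and adrenal medullae of mice at P90, that is 3 months after birth. No treatment, genotype, strain or sex was used to form the groups, and the labels give no number of animals per capture. Stage and tissue change together and cannot be told apart, and p-values measure the spread between the samples named as biological replicates.

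Keratins of simple epithelia are intermediate filament proteins that polymerise as pairs of a type II protein (Krt7, Krt8) and a type I protein (Krt18, Krt19). Krt8 with Krt18 is the first keratin pair of the mouse embryo and marks single-layered epithelia. Claudins are membrane proteins that form the strands of tight junctions and set which ions and solutes pass between epithelial cells. Epcam is an adhesion molecule of epithelial cells that binds Cldn7 and stabilises claudins at the membrane. Cells of the early neural plate and tube are themselves epithelial, and neural crest cells lose epithelial junctions as they leave the tube.

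Summed markers of each labelled tissue, over genes with no empty cell, were highest in their own stage, and 2 arrays stood apart. The summed signal of 12 neural tube and crest markers was 10152 to 11741 at E8.5, 3437 to 5882 at E13.5 and 1015 to 1899 at P90. Not all single markers followed the sum. Sox10 was higher at E13.5 (394 to 543) than at E8.5 (232 to 315). Tfap2a, Twist1, Zic1 and Pax7 overlapped between E8.5 and E13.5, and Ets1 and Pax7 between E8.5 and P90. Over the 6 of 10 ganglion markers with a value on all 9 arrays the sum was 561 to 666 at E8.5, 4955 to 7321 at E13.5 and 585 to 3329 at P90. Left out were Pou4f1, Tubb3 and Fabp7, empty on all 3 E13.5 arrays, and Runx1, empty on E13.5 replicate 1. Isl1 alone was at 3153 to 5244 at E13.5, while Prph and Ntrk3 overlapped between E13.5 and P90. For the 7 of 11 medulla markers with 9 values the sum was 456 to 479 at E8.5, 1487 to 4053 at E13.5 and 12771 to 26247 at P90, with the lowest P90 value on replicate 1. Chga (4368 to 7521) and Chgb (6419 to 8210) made up most of it at P90. Left out were Npy and Hand2, empty on all 3 P90 arrays, and Th and Slc18a2, empty on some. On P90 replicate 1 Pnmt, the adrenaline-forming enzyme, had a signal of 633, against 3749 and 3289 on the other P90 arrays. Among 9 adrenal cortex markers, Scarb1, a lipoprotein receptor, had 7157 on P90 replicate 1, 3295 on replicate 2 and an empty cell on replicate 3. Cyp11a1 had 73.2, 26.2 and 16.3. Nr5a1, Cyp11b2 and Mc2r were empty on replicate 1 only, and Star, Cyp11b1, Cyp21a1 and Hsd3b1 on all 3 P90 arrays. A difference in cortex content between the P90 arrays was not tested. On E8.5 replicate 1 all 8 epithelial genes had their lowest E8.5 signal. The Actb controls, which read RNA integrity as the log2 signal of the 3' probe set minus that of the 5' one, gave 4.82 on that array and 2.05 and 2.39 on E8.5 replicates 2 and 3. The highest value of any array was 7.0, on E13.5 replicate 2.

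Krt8, Krt18, Krt7, Epcam and Cldn6 fell at both later stages against E8.5, Krt19 fell at P90, and Cldn4 and Cldn7 were not called in any comparison. At E13.5 against E8.5, 5 of the 8 genes were called lower and 0 higher at an adjusted p under 0.05 (limma, Benjamini-Hochberg over 13748 genes). Over all genes tested 7.22% were called lower and 9.27% higher, 16.5% in all. At P90 against E8.5, 6 were called lower and 0 higher, where 12.5% of all genes were called lower and 10.9% higher, 23.3% in all. Both comparisons use the same 3 E8.5 arrays. Krt7, Krt19, Epcam and Cldn6 passed the filter on low values (26.1 on at least 3 arrays) only with E8.5 arrays counted. They passed on 4, 5, 5 and 3 arrays, the 3 E8.5 arrays among them. None of these could have been tested without E8.5 arrays past that threshold, so their lower calls are in part set by the filter. Krt8 and Krt18 did not need the E8.5 arrays to pass. At P90 against E13.5 limma called 0 of the 8, and 0 had an unadjusted p under 0.05, where 5.94% of all genes were called lower and 3.54% higher, 9.48% in all. Without E8.5 replicate 1 the 3 comparisons gave 5, 6 and 0 calls among the 8 genes, and without P90 replicate 1 they gave 6, 6 and 1. For a difference among any of the stages limma called 6 of the 8, against 26.3% of all genes. Because the 8 genes were chosen with earlier results of these data known, an excess over these shares is a description, not independent support.

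Counted by arrays alone, 6 of the 8 genes had all E13.5 arrays below all E8.5 arrays and 0 had them all above, where 17.1% and 18.6% of all genes did. For P90 against E8.5 the counts were 6 below and 0 above, where 23.6% and 20.3% of all genes were. The limit set by the filter holds for these counts too. For P90 against E13.5 they were 0 below and 0 above, where 13.9% and 9.59% of all genes were. The median change of the 8 genes was -2.26 at E13.5 against E8.5, -2.29 at P90 against E8.5 and -0.0079 at P90 against E13.5 on the log2 scale, beside 0.02, 0.0046 and -0.05 over all genes tested. These are changes of signal plus 16, which understates the change of dim genes. In such bulk samples, fewer epithelial cells and less RNA per cell cannot be told apart.

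**Figure D1:**
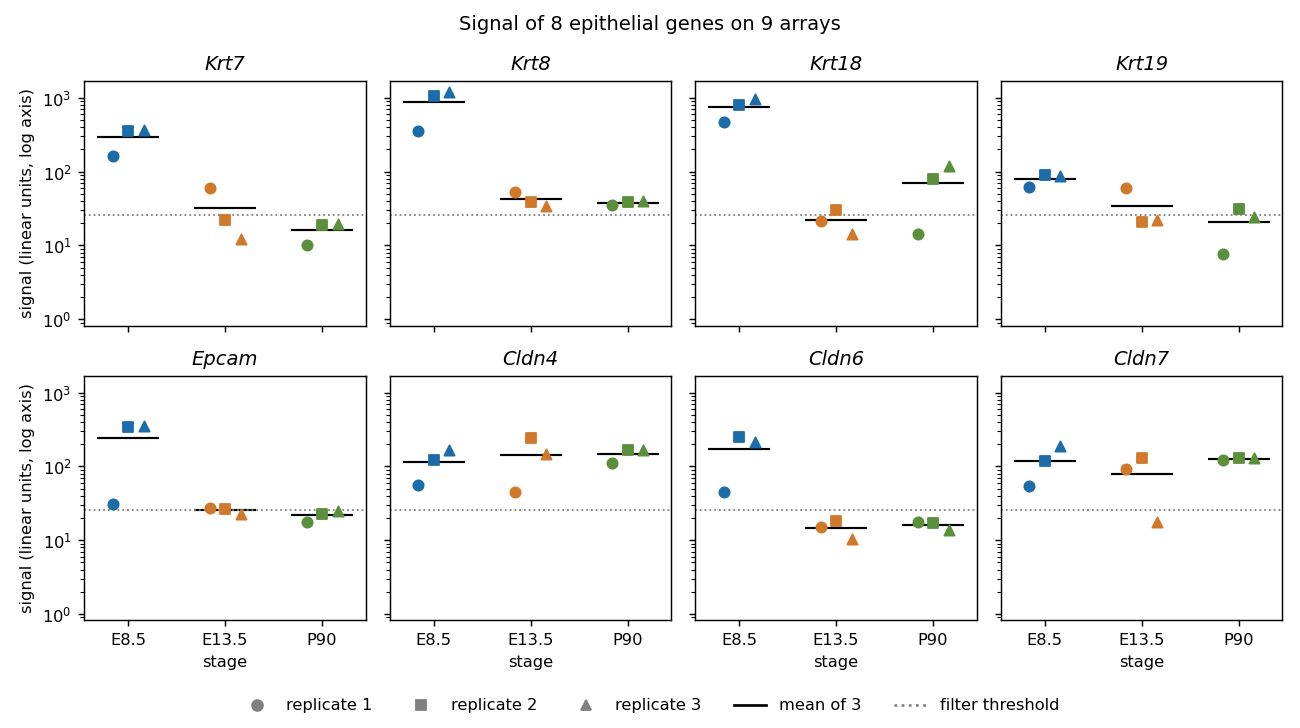
Signal of the representative probe set of each of the 8 genes on the 9 arrays, by stage (linear units on a log axis; points are arrays, black lines the mean of 3, the dotted line the filter threshold of 26.1). The E8.5 arrays of Krt7, Krt8, Krt18, Krt19, Epcam and Cldn6 lie above all later arrays, while those of Cldn4 and Cldn7 overlap with later arrays.

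Krt8, the type II keratin of the pair, had signals of 353, 1041 and 1188 at E8.5, 53.3, 38.5 and 34.4 at E13.5, and 35.4, 38.2 and 39.9 at P90. The lowest E8.5 array lay above every later array, and the E13.5 and P90 arrays overlapped. Its mean signal was 42.1 ± 9.96 at E13.5 and 861 ± 446 at E8.5 (SD, n = 3 each), a log2 change of -3.76 ± 0.41 (SE, limma adjusted p = 0.000172). At P90 the mean was 37.8 ± 2.29, a log2 change against E8.5 of -3.85 ± 0.41 (limma adjusted p = 6.44e-05). A further Krt8 probe set had 19.9, 21.9 and 10.7 at E13.5, against 224, 818 and 947 at E8.5 (log2 change -4.12 ± 0.46 in the fit of single probe sets). It passed the filter on low values only through the 3 E8.5 arrays, so it could not have passed without being higher there. The last Krt8 probe set was empty on all 3 E8.5 arrays for no stated reason and held signals of 1.0 to 16.9 at E13.5 and P90, so it gave no comparison with E8.5. Over the series, probe sets empty on all arrays of a stage often belonged to genes that were bright there, as given under the processing.

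Krt18, the type I partner of Krt8, had signals of 473, 807 and 970 at E8.5, 21.5, 30.4 and 14.2 at E13.5, and 14.3, 78.1 and 119 at P90. Its 3 P90 arrays spread over an 8.34-fold range, the widest of the 8 genes at that stage, from 14.3 on replicate 1 to 119 on replicate 3. On the log2 scale the change was -4.30 ± 0.50 at E13.5 against E8.5 (limma adjusted p = 0.000254) and -3.34 ± 0.50 at P90 against E8.5 (limma adjusted p = 0.000693). The change at P90 against E13.5 was 0.96 ± 0.50 (limma adjusted p = 0.317). Without P90 replicate 1, the array with the lowest summed medulla markers, Krt18 was called higher at P90 than at E13.5 (log2 change 1.59, limma adjusted p = 0.0224), and its change at P90 against E8.5 was -2.71 (limma adjusted p = 0.000407). Krt8 spanned 35.4 to 39.9 on the same P90 arrays.

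**Figure D2:**
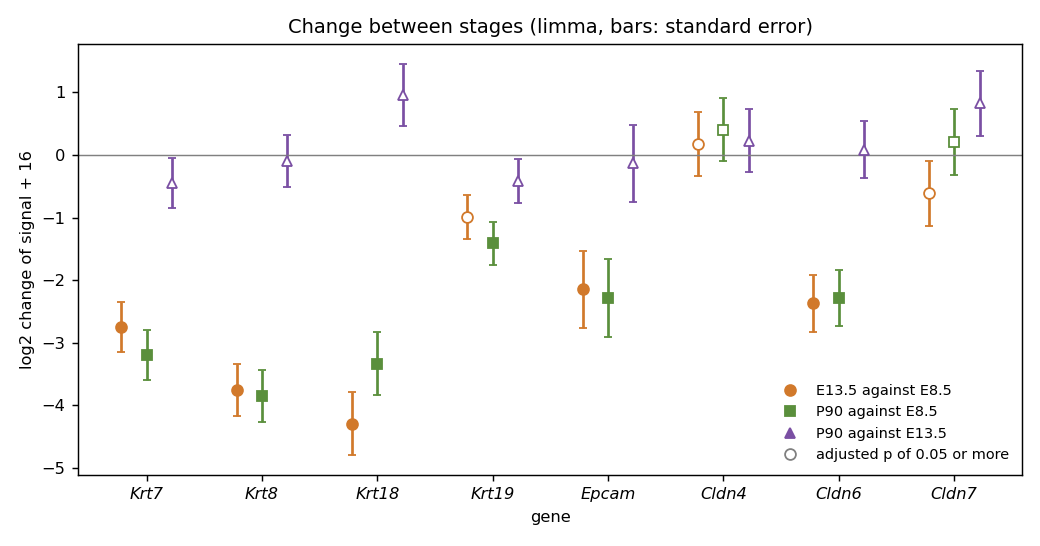
Log2 change of signal plus 16 for each of the 8 genes in the 3 comparisons (limma; bars are standard errors; filled symbols have an adjusted p under 0.05). Changes against E8.5 run down to -4.30 for Krt18, and all 8 changes at P90 against E13.5 have open symbols.

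Krt7 is the other type II keratin measured here, found in ducts and simple linings. Its signals were 164, 349 and 362 at E8.5, 60.7, 22.3 and 12.0 at E13.5, and 10.2, 19.1 and 19.4 at P90. The stages ran in that order by mean, and the E13.5 and P90 arrays overlapped. The log2 change was -2.74 ± 0.40 at E13.5 against E8.5 (limma adjusted p = 0.000848) and -3.19 ± 0.40 at P90 against E8.5 (limma adjusted p = 0.000196).

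Krt19, a type I keratin of simple and ductal epithelia, changed least among the 4 keratins in both comparisons with E8.5. Its signals were 61.5, 90.7 and 85.8 at E8.5, 60.7, 20.5 and 22.3 at E13.5, and 7.62, 31.3 and 24.2 at P90. E13.5 replicate 1 (60.7) lay just under E8.5 replicate 1 (61.5). At P90 against E8.5 the log2 change was -1.41 ± 0.35 (limma adjusted p = 0.0122), a call that was lost without E8.5 replicate 2 (adjusted p = 0.0508). At E13.5 against E8.5 the change was -0.99 ± 0.35 (limma adjusted p = 0.0763), and the call was gained without E13.5 replicate 1 (-1.34, adjusted p = 0.0166) or without P90 replicate 1 (adjusted p = 0.0412).

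Krt8 and Krt18 lie next to each other on chromosome 15, with 0 other protein-coding genes starting between them in the RefSeq table, and Krt7 lies on the same chromosome. Because both neighbours fell against E8.5, their start regions are shown (RefSeq, GRCm38.p6, 250 bases before to 50 after the start site). Krt8 is at chr15:102004293-102004592 on the minus strand and Krt18 at chr15:102027966-102028265 on the plus strand. Capitals mark matches, on either strand, to 5 short motifs: GGGCGG (the GC box of Sp and KLF factors), TGANTCA (AP-1), AACNGGTT (grainyhead factors), CAGGTG (the E2-box of Snail and Zeb factors) and TATAAA (the TATA box).
Krt8: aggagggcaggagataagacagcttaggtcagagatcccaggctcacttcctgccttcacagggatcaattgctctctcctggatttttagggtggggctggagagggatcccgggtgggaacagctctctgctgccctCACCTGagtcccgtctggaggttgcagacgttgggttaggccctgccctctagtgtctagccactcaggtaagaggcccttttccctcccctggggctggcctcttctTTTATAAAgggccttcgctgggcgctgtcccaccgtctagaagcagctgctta
Krt18: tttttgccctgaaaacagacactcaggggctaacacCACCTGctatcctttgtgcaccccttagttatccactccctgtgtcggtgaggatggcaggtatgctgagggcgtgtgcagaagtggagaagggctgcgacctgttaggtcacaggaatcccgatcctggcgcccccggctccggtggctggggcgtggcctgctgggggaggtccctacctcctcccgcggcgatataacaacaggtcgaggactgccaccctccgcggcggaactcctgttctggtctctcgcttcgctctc
The Krt8 window held a TATA box that matched on both strands at overlapping places, and 1 E2-box. The Krt18 window held 1 E2-box and no other of the 5 motifs, the TATA box included.

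Epcam had signals of 31.4, 342 and 350 at E8.5, 27.0, 26.8 and 22.7 at E13.5, and 17.7, 22.8 and 25.0 at P90. E8.5 replicate 1 was close to the E13.5 arrays, and the other E8.5 arrays were far above them. On the log2 scale the change was -2.15 ± 0.62 at E13.5 against E8.5 (limma adjusted p = 0.034) and -2.29 ± 0.62 at P90 against E8.5 (limma adjusted p = 0.0192). Without E8.5 replicate 1 these were -3.13 (adjusted p = 0.000136) and -3.26 (adjusted p = 3.44e-05). The E13.5 call was lost without E8.5 replicate 2 or 3, any E13.5 array or P90 replicate 3 (limma adjusted p from 0.0514 to 0.144), and the P90 call without E8.5 replicate 2 or 3 or P90 replicate 2 or 3 (0.0523 to 0.0872). The other Epcam probe set had signals of 1.0 to 7.88 on the 8 arrays with a value, with 1 empty cell at P90, and did not pass the filter.

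Cldn6, a claudin of embryonic epithelia, had signals of 45.4, 253 and 217 at E8.5, 15.2, 18.2 and 10.3 at E13.5, and 17.6, 16.9 and 13.9 at P90. All E8.5 arrays lay above all later ones, and its probe set passed the filter on low values only through the 3 E8.5 arrays, so it could not have passed without being higher there. The log2 change was -2.37 ± 0.45 at E13.5 against E8.5 (limma adjusted p = 0.0041) and -2.29 ± 0.45 at P90 against E8.5 (limma adjusted p = 0.00371). Without E8.5 replicate 1 the changes were -3.04 and -2.96. With no filter on low values limma called 4 of the 8 genes lower at E13.5 and 6 at P90 against E8.5, Cldn6 in both, while Epcam was not called at E13.5 (adjusted p = 0.0642).

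Cldn4, a tight junction claudin that is the receptor of a Clostridium enterotoxin, had signals of 55.3, 121 and 167 at E8.5, 45.6, 242 and 146 at E13.5, and 111, 165 and 165 at P90. All 3 stages overlapped. On the log2 scale the change was 0.18 ± 0.51 at E13.5 against E8.5 (limma adjusted p = 0.875), 0.41 ± 0.51 at P90 against E8.5 (limma adjusted p = 0.619) and 0.23 ± 0.51 at P90 against E13.5 (limma adjusted p = 0.865). The sign of the first turned without E8.5 replicate 1 (-0.21) or E13.5 replicate 2 (-0.28).

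Cldn7, the claudin that binds Epcam, had signals of 53.8, 117 and 187 at E8.5, 93.2, 128 and 17.4 at E13.5, and 123, 129 and 128 at P90. The P90 arrays spanned 5.22 units, while both embryonic stages were spread widely. The log2 change was -0.62 ± 0.52 at E13.5 against E8.5 (limma adjusted p = 0.502), 0.21 ± 0.52 at P90 against E8.5 (limma adjusted p = 0.821) and 0.82 ± 0.52 at P90 against E13.5 (limma adjusted p = 0.427). The last of these was 0.19 without E13.5 replicate 3 and 1.24 without E13.5 replicate 2, and the first was 0.0206 without E13.5 replicate 3. With these standard errors, a missed threshold does not show that Cldn4 or Cldn7 was level between stages.

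Promoter windows were on hand for 7 of the 8 genes, and 3 more are shown to set 2 genes that fell, Epcam and Cldn6, beside 1 that was not called, Cldn4. They lie at chr17:87635729-87636028 (plus strand), chr17:23679115-23679414 (plus strand) and chr5:134946885-134947184 (minus strand), in the same build and with capitals for the same motifs.
Epcam: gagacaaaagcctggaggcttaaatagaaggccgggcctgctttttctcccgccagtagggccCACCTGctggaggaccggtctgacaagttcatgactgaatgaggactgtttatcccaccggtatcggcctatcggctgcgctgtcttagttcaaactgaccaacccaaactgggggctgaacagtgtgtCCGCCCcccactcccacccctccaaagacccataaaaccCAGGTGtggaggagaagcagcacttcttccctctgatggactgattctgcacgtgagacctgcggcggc
Cldn6: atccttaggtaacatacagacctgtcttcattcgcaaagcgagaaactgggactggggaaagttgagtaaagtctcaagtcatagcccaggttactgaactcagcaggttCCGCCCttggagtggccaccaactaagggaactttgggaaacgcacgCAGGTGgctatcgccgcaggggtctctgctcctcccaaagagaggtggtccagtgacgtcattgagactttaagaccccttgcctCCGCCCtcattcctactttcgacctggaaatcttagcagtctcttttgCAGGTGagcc
Cldn4: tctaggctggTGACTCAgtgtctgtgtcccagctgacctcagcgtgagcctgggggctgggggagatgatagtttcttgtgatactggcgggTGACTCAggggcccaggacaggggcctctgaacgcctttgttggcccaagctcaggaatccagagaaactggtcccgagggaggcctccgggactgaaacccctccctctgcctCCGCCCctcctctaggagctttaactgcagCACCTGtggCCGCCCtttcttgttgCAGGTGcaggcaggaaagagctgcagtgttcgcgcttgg
An E2-box stood in a window of each of the 7 genes (in 1 of the 2 windows of Cldn7), where 20.2% of all 32851 windows of this length hold one. A GC box stood in the windows of Krt7, Epcam, Cldn4, Cldn6 and Cldn7, against 35.7% of all windows. An AP-1 motif stood only in that of Cldn4, where it occurred at 2 places (7.81% of all windows hold one), and a grainyhead motif in none of the 7 (2.09% of all windows). GC content was 52.0% to 66.3% in the windows of these genes and had a median of 52.7% over all windows. The E2-box stood beside genes that fell and beside Cldn4 and Cldn7, which were not called.

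Over the 9 arrays the log2 signals of Krt7, Krt8, Krt18, Krt19, Epcam and Cldn6 correlated with each other at Pearson's r of 0.76 to 0.98, and those of Cldn4 with these 6 at -0.36 to 0.13, and of Cldn7 at 0.15 to 0.39. These values are descriptions: the 9 points fall into 3 stages, and all genes share the same arrays. Among 12756 tested genes with no empty cell, the closest to Krt8 were Depdc1b (r = 0.997), Msx3 (r = 0.995), a homeobox factor of the dorsal neural tube, and ccdc198 (r = 0.991). Closest to Krt18 were Car4, a carbonic anhydrase (r = 0.958), Fut9, a fucosyltransferase (r = 0.955), and Nup43, a nuclear pore protein (r = 0.954). For Krt7 they were Krt8 (r = 0.976), Pdk3 (r = 0.975) and Nop58 (r = 0.975), and for Krt19 Lrrc1 (r = 0.964), the glucose transporter Slc2a3 (r = 0.955) and the cytokinesis protein Prc1 (r = 0.954). Epcam was closest to Cltrn (r = 0.981), to Cldn6 (r = 0.975) and to Ammecr1 (r = 0.972). Cldn6 was closest to the homeobox factor Irx2 (r = 0.992), the myogenic factor Myf5 (r = 0.991) and the desmosomal cadherin Dsg2 (r = 0.982). Cldn4 was closest to Slc16a13 (r = 0.982), Kprp (r = 0.964) and Slc35a5 (r = 0.963), and Cldn7 to Kdf1, a keratinocyte differentiation factor (r = 0.927), Nfkb2 (r = 0.850) and Pipox (r = 0.843).

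Within E8.5, replicate 1 had the lowest signal of the 3 arrays for 8 of these 8 genes, where this held for 40.4% of the 13522 tested genes with 3 values at E8.5. The same held for 9 of 13 tight junction scaffold and polarity genes, 6 of 11 desmosome and adherens junction genes and 6 of 10 relatives of Epcam and membrane proteases. It held for 2 of 6 other keratins, 3 of 9 other claudins, 4 of 11 epithelial transcription and splicing factors and 5 of 9 mesenchymal transition regulators. Within P90, replicate 1 was lowest for 7 of the 8 genes, against 28.5% of 13391 tested genes, and within E13.5 replicate 3 was lowest for 6 of the 8, against 10.5% of 13273. With the Actb difference as a covariate limma called the same numbers of the 8 genes: 5 at E13.5 and 6 at P90 against E8.5.

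**Figure D3:**
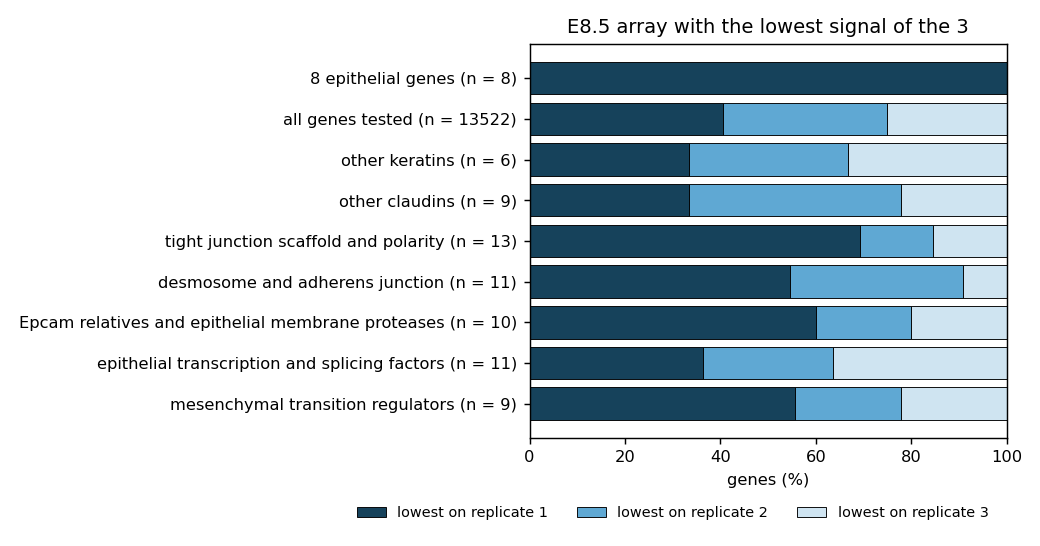
Share of genes (%) whose lowest E8.5 signal fell on each of the 3 E8.5 arrays, for the 8 epithelial genes, all genes tested and the 7 related lists (genes with 3 values at E8.5). Replicate 1 was lowest for 8 of 8 epithelial genes and for 40.4% of all genes tested.

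Of the other keratins and claudins that could be tested, limma called 1 keratin and no claudin. Over all genes 16.5% were called at E13.5 and 23.3% at P90 against E8.5, and 9.48% at P90 against E13.5. With 6 and 10 genes tested, such counts do not set these lists apart from all genes. Of 15 other keratins 6 were tested, and limma called 1 higher and 0 lower at E13.5 against E8.5 (1 higher and 0 lower at unadjusted p under 0.05). The riser was Krt222, a keratin-like gene, with 88.3 ± 22.1 at E13.5 and 33.0 ± 8.63 at E8.5 (SD, n = 3 each), a log2 change of 1.08 ± 0.33 (adjusted p = 0.0462). Krt14, the basal keratin of stratified skin, stayed at 9.17 to 27.5 on all 9 arrays. At P90 against E8.5 limma called 0 of the 6 (1 higher and 0 lower at unadjusted p under 0.05), and at P90 against E13.5 also 0 (0 at unadjusted p under 0.05). Of 17 other claudins with a probe set 10 were tested, and limma called 0 in any of the 3 comparisons, with 0 higher at unadjusted p under 0.05. At that p, 1 was lower at E13.5 against E8.5 (median change 0.15), 2 at P90 against E8.5 (median -0.10) and 1 at P90 against E13.5 (median -0.15). Cldn8, named after its values were seen, passed the threshold on too few arrays to be tested. Its signals were 7.74, 74.3 and 103 at E8.5, 4.50, 2.31 and 1.62 at E13.5, and 3.62, 6.29 and 8.54 at P90, so that E8.5 replicates 2 and 3 lay above all later arrays and replicate 1 within their range.

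Among junction proteins some were called lower and some higher. Over all genes 7.22% were called lower at E13.5 and 12.5% at P90 against E8.5, and 5.94% at P90 against E13.5. The shares called higher were 9.27%, 10.9% and 3.54%, in the same order. At E13.5 against E8.5, of 11 tested desmosome and adherens junction genes 4 were called lower and 1 higher, with a median change of -0.02. Dsp, the plaque protein that ties keratin filaments to desmosomes, had 210 ± 297 at E13.5 and 1495 ± 157 at E8.5 (SD, n = 3 each), a log2 change of -3.69 ± 1.14 (limma adjusted p = 0.0466). Dsg2, the desmosomal cadherin of simple epithelia, had 25.9 ± 5.97 at E13.5 and 279 ± 180 at E8.5, a change of -2.53 ± 0.49 (limma adjusted p = 0.00471). Outside E8.5 only E13.5 replicate 3 (32.8) was past the filter threshold for Dsg2, so it was tested only through its E8.5 arrays. Dsp varied between arrays of a stage, with 553, 54.2 and 24.0 at E13.5 and 1337, 95.5 and 32.4 at P90. Jup, of the same list and named after its values were seen, went the other way. Its signals were 84.0, 139 and 152 at E8.5, 508, 367 and 582 at E13.5, and 612, 362 and 300 at P90. All later arrays of Jup lay above all its E8.5 arrays. The P90 arrays against E8.5 gave 3 lower calls and 1 higher, with Dsg2 at -2.79 ± 0.49 (limma adjusted p = 0.00191) and Pkp2, a desmosomal plaque protein, at -2.39 ± 0.46 (limma adjusted p = 0.00333). At P90 against E13.5, 1 was called lower and 0 higher. It was Cdh1, the classical cadherin of epithelia, named after its values were seen, with 26.5, 414 and 447 at E8.5, 212 and 546 at E13.5 with 1 empty cell, and 6.06, 3.85 and 7.76 at P90. Its E8.5 and E13.5 arrays overlapped, and all P90 arrays lay below both. On the log2 scale the change was -4.04 ± 0.87 at P90 against E13.5, with the empty cell left out of the fit (limma adjusted p = 0.0148).

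Of 13 tight junction scaffold and polarity genes, 2 were called lower and 0 higher at E13.5 against E8.5, with a median of -0.26. They were F11r, a junctional adhesion molecule (log2 change -1.62 ± 0.38, limma adjusted p = 0.0132), and Lsr, a protein of tricellular junctions (-0.98 ± 0.28, limma adjusted p = 0.0352). Between P90 and E8.5, 2 were called lower and 0 higher, with a median of -0.61: the polarity protein Pard6b (-2.03 ± 0.33, limma adjusted p = 0.0011) and the junction scaffold Cgn (-1.15 ± 0.30, limma adjusted p = 0.0173). Cgn passed the filter only with E8.5 arrays counted (39.1 and 52.6 there, 37.1 on E13.5 replicate 1). Over all genes 7.22% were called lower at E13.5 and 12.5% at P90 against E8.5, from which 2 of 13 genes does not stand apart. At P90 against E13.5, 1 was called higher and 2 lower, where 3.54% of all genes were called higher and 5.94% lower. The lower ones were Pard6b (-2.04 ± 0.33, limma adjusted p = 0.00238) and Marveld2 (-1.46 ± 0.39, limma adjusted p = 0.036). Ocln, named after its values were seen, went the other way, with 151, 57.8 and 81.3 at P90 and 23.8, 16.5 and 28.4 at E13.5.

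Among 10 tested relatives of Epcam and membrane proteases, 1 fell at E13.5 against E8.5, Spint1, an inhibitor of epithelial serine proteases, with 26.7 ± 5.78 at E13.5 and 141 ± 8.87 at E8.5 (n = 3 each; log2 change -1.89 ± 0.34, limma adjusted p = 0.00263). That 1 of 10 stood beside 7.22% of all genes called lower. At P90 against E8.5, 3 were called higher and 1 lower, where 10.9% of all genes were called higher and 12.5% lower. Cd9, a tetraspanin, had 918 ± 52.9 at P90 and 23.3 ± 5.48 at E8.5 (log2 change 4.58 ± 0.63, limma adjusted p = 0.000368). Cd24a, a surface glycoprotein of neural and epithelial progenitors, had 191 ± 71.3 at P90 and 2813 ± 243 at E8.5 (-3.83 ± 0.38, limma adjusted p = 4.11e-05). At P90 against E13.5, 4 were called higher, Cd9 among them (3.12 ± 0.63, limma adjusted p = 0.00849), and 1 lower, Cd24a (-4.25 ± 0.38, limma adjusted p = 8.27e-05). Over all genes 3.54% were called higher and 5.94% lower in that comparison.

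Of 11 tested epithelial transcription and splicing factors, 2 fell and 0 rose at E13.5 against E8.5, 3 fell and 0 rose at P90 against E8.5, and 1 fell and 0 rose at P90 against E13.5. Over all genes the shares called lower were 7.22%, 12.5% and 5.94%, in the same order. The 2 at E13.5 were Sp8 and Trp63, and both passed the filter on low values only through the 3 E8.5 arrays, so neither could have been tested without being higher there. Sp8, a zinc finger factor of ectoderm and neural tube, had 8.38 ± 5.30 at E13.5 and 279 ± 123 at E8.5 (SD, n = 3 each; log2 change -3.51 ± 0.33). Trp63, which directs stratified epithelium, had 17.2 ± 7.73 at E13.5 and 91.1 ± 39.4 at E8.5 (-1.64 ± 0.31). Esrp1, an epithelial splicing regulator named after its values were seen, was not tested because too few arrays passed the threshold. Its signals were 10.2, 112 and 126 at E8.5, 10.1, 5.81 and 1.66 at E13.5, and 1.0, 3.32 and 2.75 at P90. E8.5 replicates 2 and 3 lay above all later arrays, while E8.5 replicate 1 was about level with E13.5 replicate 1, both under the threshold. The largest at P90 against E8.5 were Sp8 (-3.48 ± 0.33, with the same limit) and Tfap2a, a factor of ectoderm and neural crest (-2.77 ± 0.45, limma adjusted p = 0.00119). Grhl2, a grainyhead factor that acts on Cldn4 and Cdh1 in other epithelia, had signals of 188 to 236 at E8.5, 155 to 299 at E13.5 and 113 to 293 at P90, which overlapped.

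The mesenchymal transition regulators gave 0 calls of 9 at E13.5 against E8.5 (limma; 1 higher and 0 lower at unadjusted p under 0.05), with a median of 0.23. The 0 calls stood beside 16.5% of all genes called. At P90 against E8.5, 2 were called lower and 0 higher, and at P90 against E13.5, 3 lower and 0 higher. Over all genes 12.5% and 5.94% were called lower in these. Fn1, the matrix protein fibronectin, had 75.5 ± 39.3 at P90 and 1229 ± 188 at E8.5 (log2 change -3.84 ± 0.63, limma adjusted p = 0.00121). Twist1, a factor of cranial mesenchyme and crest, had 12.9 ± 8.26 at P90 and 218 ± 127 at E8.5 (-2.85 ± 0.46, limma adjusted p = 0.00109). Against E13.5 the changes at P90 were -3.22 ± 0.63 for Fn1 (limma adjusted p = 0.00723) and -2.32 ± 0.46 for Twist1 (limma adjusted p = 0.00757).

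**Figure D4:**
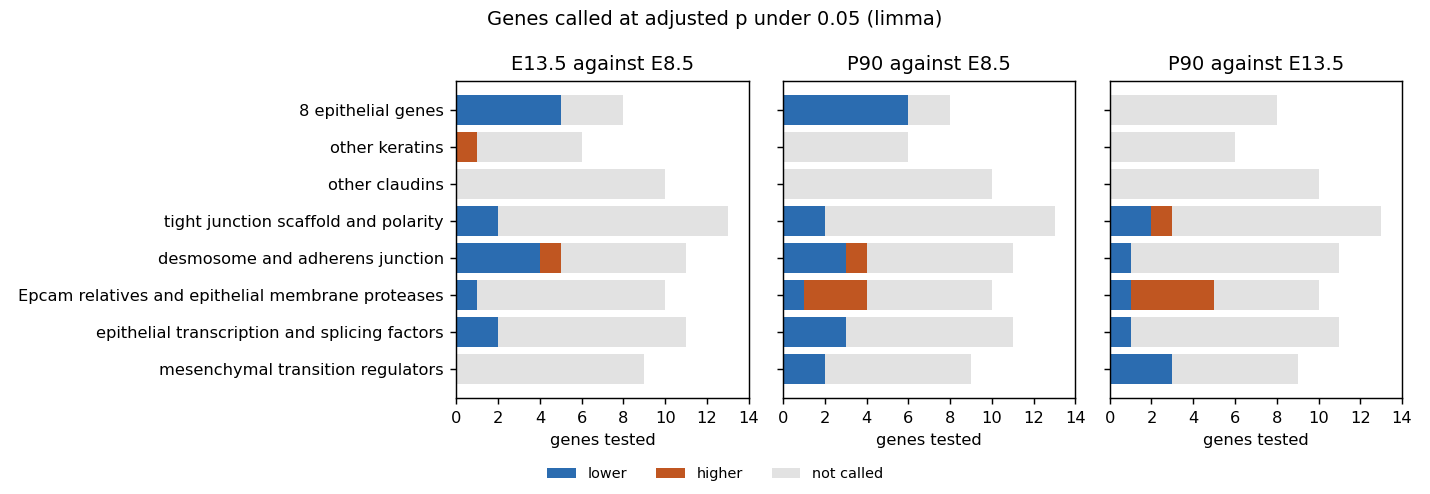
Number of tested genes called lower, higher or not called (limma, adjusted p under 0.05) in each comparison, for the 8 epithelial genes and 7 related lists. The 8 genes had 5, 6 and 0 lower calls from left to right, and the other claudins had 0 calls in all 3 panels.

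Markers of other cell types that carry simple keratins were in part above the threshold of 26.1 at E8.5. That threshold is the 40th percentile of all values, so most values lie above it, and passing it does not mark a cell type. Of 8 surface ectoderm markers 6 were above it on all 3 E8.5 arrays: Tfap2a (325 to 856), Dlx5 (112 to 242), Grhl3 (112 to 128), Trp63 (49.2 to 127), Wnt6 (59.8 to 87.3) and Krt5 (49.5 to 59.2). Krt14 was at 14.3 to 27.5 and Krt15 at 5.49 to 14.3. Tfap2a is also a neural crest factor, and Tfap2a, Dlx5, Grhl3 and Krt5 were above the threshold on all 3 P90 arrays too. Over the 6 of the 8 surface ectoderm markers with a value on all 9 arrays the summed signal was 852 to 1268 at E8.5, 618 to 838 at E13.5 and 312 to 340 at P90. Within E8.5 the sum was lowest on replicate 1, where Tfap2a was 325, against 782 and 856 on replicates 2 and 3. Trp63 was lowest there too, and Krt14 and Grhl3 were not. Dlx5 (242, against 123 and 112) and Wnt6 (87.3, against 64.7 and 59.8) were highest on replicate 1. Of 6 tested, 1 was called lower at E13.5 and 3 at P90 against E8.5, where 7.22% and 12.5% of all genes were.

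Of 10 gut endoderm and notochord markers 4 were above the threshold on all 3 E8.5 arrays: Shh (398 to 762, and 629 to 779 at P90), Sox17 (55.4 to 162), Hnf4a (39.3 to 67.8) and Ttr (29.5 to 60.1). Foxa2 was at 2.60 to 54.4 and Foxa1 at 1.03 to 8.03. The sum over 7 with 9 values was 667 to 1073 at E8.5, 639 to 1271 at E13.5 and 848 to 1024 at P90, and limma called 0 of 6 tested at either stage against E8.5 (1 higher at E13.5 and 1 lower at P90 at unadjusted p under 0.05). Of 10 trophoblast and yolk sac markers 3 were above the threshold on all 3 E8.5 arrays, Hand1 (102 to 155), Ttr and Rhox5 (28.3 to 32.2), and 6 were below it on all 3, with Apoa4 at the floor of 1. The sum over 9 with 9 values was 226 to 288 at E8.5, 262 to 519 at E13.5 and 257 to 399 at P90. Of 7 mesothelium markers 1 was above it on all 3 E8.5 arrays, Gpm6a (40.6 to 69.5), and 3 were below it on all 3. Upk1b was at 21.3 to 55.4, Wt1 at 19.6 to 63.7 and Msln at 1.45 to 7.46. The sum over the 7 was 156 to 203 at E8.5, 225 to 313 at E13.5 and 129 to 170 at P90. The part of these cell types in the E8.5 levels of the 8 genes was not tested.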

How the data were processed

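Total RNA of laser-captured cells was hybridised to Affymetrix mouse arrays, 3 for each of 3 stages. The deposited values are 1 linear intensity per probe set with a floor of 1. MAS5, GCOS, RMA and GCRMA are named without a role in the submitters' processing notes, and neither the one behind these values nor the scaling of the arrays is given in the sources used here. Empty values (8048 of 405909, 1.98%) carry no stated reason and were left out of the fits. They were not neutral to signal. For 37 probe sets empty on all 3 E8.5 arrays, the same gene had another probe set with no empty cell. That one was higher at E8.5 than at E13.5 by over 1 on the log2 scale for 26 and lower for 0. Of 129 such probe sets empty on all 3 E13.5 arrays, 57 were higher at E13.5 than at E8.5 by this measure and 1 lower. The signal medians of the arrays were 38.3 to 48.2, and the number of arrays limits the precision. GEO's platform annotation gave 1 symbol to 34945 of 45101 probe sets, several to 932 and none to 9160, with 64 controls.

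Signals were taken as log2(signal + 16) with no further scaling. A probe set was tested if it passed the 40th percentile of all values (26.1) on at least 3 arrays and had at least 2 values per stage. Each gene was represented by its brightest probe set by mean over all arrays. All 9 arrays entered 1 limma fit with a variance trend (limma 3.58.1, R 4.3.3), with Benjamini-Hochberg adjustment over 13748 genes. Python 3.11.15 and pandas 2.3.3 were used for counts and sums, and the scripts were tested on simulated data. Promoter sequences are RefSeq's (GRCm38.p6). The 8 genes and all lists were chosen with earlier results of these data known. From each related list the text names, per comparison, the 2 called genes with the largest change that had no empty cell and stages that did not overlap, and for each of the 8 genes the 3 most correlated genes; other names are given as such. Alternatives covered scaling, pseudocount, filter, probe set choice, variance model, the Actb difference, the replicate number and each array left out.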

Additional observations from a re-analysis of the deposited data

How the results depend on the processing

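Of 522 alternative values of the 24 log2 changes, 499 kept their direction and side of the threshold. Krt7, Krt8, Krt18 and Cldn6 kept their calls against E8.5 under all alternatives that tested them. With the filter at the 60th percentile only 5 of the 8 genes were tested, and 3 were called at E13.5 against E8.5, 3 at P90 against E8.5 and 3 for any stage. Leaving out 1 array gave 4 to 6 calls at E13.5 against E8.5, 4 to 6 at P90 against E8.5, 0 to 1 at P90 against E13.5 (1 without P90 replicate 1) and 4 to 6 for any stage. Epcam was not called at E13.5 against E8.5 with only the arrays of those stages (adjusted p = 0.0565, limma). Changes that turned sign were uncalled: for Cldn4, -0.28 without E13.5 replicate 2 and -0.21 without E8.5 replicate 1 at E13.5 against E8.5, and -0.35 without E13.5 replicate 1 at P90 against E13.5; for Cldn7, 0.0206 without E13.5 replicate 3 at E13.5 against E8.5 and -0.21 without E8.5 replicate 1 at P90 against E8.5; at P90 against E13.5, -0.0231 for Cldn6 without E13.5 replicate 3 and 0.0373 for Krt8 without E13.5 replicate 1. The cause was not tested. With each array left out in turn, these changes ran up to 0.75 (Cldn4) and down to -1.03 (Cldn7) at E13.5 against E8.5, up to 0.69 (Cldn4) and 0.17 (Cldn6) and down to -0.19 (Krt8) at P90 against E13.5, and up to 0.57 (Cldn7) at P90 against E8.5. Over all genes, 2267 were called at E13.5 and 3209 at P90 against E8.5, and 3594 and 4993 with each probe set on its own, which tests more features. At P90 against E13.5, 1303 were called, 832 with only those arrays and 2039 with the Actb difference as a covariate. Leaving out 1 array lowered them by over 1.5 times at E13.5 against E8.5 (1355 without E8.5 replicate 2, 1510 without E8.5 replicate 3 and 1510 without E13.5 replicate 3), at P90 against E8.5 (2057 without E8.5 replicate 2) and at P90 against E13.5 (682 without E13.5 replicate 3). With the replicate number as a block, 5, 6 and 0 of the 8 genes were called, as without it. Same-numbered arrays did not deviate together (r of -0.37 to 0.39 over 9 pairs), so the numbers were not taken to pair samples. The fit without genes that had empty cells was chosen after seeing the data.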
